A study of Mus musculus with 4 samples.

Results

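The NF-kB feedback, TNF and IL-6 genes are 10 of the 32285 genes counted in single cells of mouse callus and bone: the cytokine genes Tnf and Il6, the TNF receptor genes Tnfrsf1a and Tnfrsf1b, the NF-kB subunit genes Nfkb1, Rel and Relb, and the feedback genes Nfkbia, Nfkbiz and Tnfaip3. They were chosen by symbol, and all 10 were found in each of the 4 count matrices. The scRNA-Seq compared 20-week-old male C57BL/6J mice at week 2 of treatment with prednisolone, a synthetic glucocorticoid (GC), at 6.25 mg/kg/d, against placebo (control), in fracture callus and in trabecular bone. Slow-release pellets are given in the labels of every library, daily injection is described in the paper for fractured mice, and the number of mice behind a library is not given in the sources used here. Each group is 1 library, so no test between GC and control was possible. Intervals of levels, ratios and shares of UMIs are 95% intervals for counting error and do not cover the spread between cells. Those of shares of cells are 95% intervals over the cells of 1 library. None covers the variation between animals.

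NF-kB is a family of dimeric transcription factors held in the cytoplasm by inhibitor proteins of the IκB family. TNF, binding its receptors, or bacterial products acting through Toll-like receptors activate a kinase that marks the inhibitor for destruction, and the freed dimers then enter the nucleus and switch on cytokine genes together with their own brakes. Nfkbia encodes the inhibitor IκBα, Tnfaip3 encodes A20, a ubiquitin-editing enzyme that stops the signal at the receptor, and Nfkbiz encodes the nuclear protein IκBζ, needed for a later set of targets such as Il6. In bone, TNF and IL-6 are known for driving osteoclast formation, and glucocorticoids are used to restrain both cytokines.

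Cells were called, filtered and grouped by their markers into classes, with the 10 genes and their pathway kept out of the clustering. After filtering, callus held 6683 control and 6890 GC cells with median depths of 4219 and 3298 unique molecular identifiers (UMIs), each UMI standing for 1 captured RNA molecule. Trabecular bone held 3747 control and 4592 GC cells with median depths of 6398 and 5614 UMIs. The libraries held between 41239842 and 95852254 UMIs in all, and any pair shared between 7 and 11 barcodes. The level of a gene in a class is given as CPM, its share of the summed UMIs of the class on the usual counts-per-million scale. Because the UMIs are tags from the 3′ end of a transcript, levels are compared for 1 gene between classes or libraries and not between genes. A gene is called past the fold when its CPM with 5 CPM added differed at least 1.5-fold between GC and control and both libraries together held at least 50 of its UMIs. The macrophage class includes monocyte clusters, which held 969 of its 1348 cells in callus. In trabecular bone the class consists of monocyte clusters alone. The leading genes of the class named mast cells or basophils included Prss34, Mcpt8 and Gata2 in both tissues, among them basophil genes. In trabecular bone they also included Cpa3, and in its cluster 23 Fcer1a and Ms4a2. Callus cluster 22, with 52 cells and Cpa3, Cma1 and Mcpt8 among its leading genes, was left unnamed and lies outside this class. Its leading genes also held markers of another class. Different clusters held most neutrophils of each library. In callus, 1011 of 1694 control neutrophils were in cluster 2 and 1157 of 1378 GC neutrophils in cluster 0. In trabecular bone, clusters 2, 3 and 4, with 682, 655 and 638 GC cells, held 1 control cell between them. Part of the neutrophils carried genes of secondary granules such as Ngp, Camp, Ltf and Lcn2, which mark immature cells. These granule-gene neutrophils and the other neutrophils are also given apart, a split made after the clusters had been seen.

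Tnf (ENSMUSG00000024401, chr17:35199381-35202007, minus strand of GRCm38) and Il6 (ENSMUSG00000025746, chr5:30013114-30019981, plus strand) encode the ligands. Tnfrsf1a (ENSMUSG00000030341, chr6:125349362-125362484, plus) and Tnfrsf1b (ENSMUSG00000028599, chr4:145213463-145246870, minus) encode the receptors. Nfkb1 (ENSMUSG00000028163, chr3:135584655-135691547), Rel (ENSMUSG00000020275, chr11:23736847-23770970) and Relb (ENSMUSG00000002983, chr7:19606217-19629438), all on the minus strand, encode the p50 precursor, c-Rel and RelB. The feedback genes Nfkbia (ENSMUSG00000021025, chr12:55489410-55492647), Nfkbiz (ENSMUSG00000035356, chr16:55811375-55838899) and Tnfaip3 (ENSMUSG00000019850, chr10:19000910-19015657) also lie on the minus strand. All 10 are annotated as protein coding.

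The sequences just upstream of 3 genes are shown because the results turn on these genes and because NF-kB dimers bind a known decamer there. RefSeq windows on GRCm38.p6 were matched for 7 of the 10 genes, with a second start for Tnfaip3. Nfkbiz, Nfkb1 and Relb had none. Each line gives the 250 bases before the RefSeq start, 5′ to 3′ on the gene's strand, and capitals mark a match to the NF-kB consensus decamer on either strand. The windows are chr12:55492648-55492897 (minus) for Nfkbia, chr5:30012864-30013113 (plus) for Il6 and chr17:35202008-35202257 (minus) for Tnf.
Nfkbia: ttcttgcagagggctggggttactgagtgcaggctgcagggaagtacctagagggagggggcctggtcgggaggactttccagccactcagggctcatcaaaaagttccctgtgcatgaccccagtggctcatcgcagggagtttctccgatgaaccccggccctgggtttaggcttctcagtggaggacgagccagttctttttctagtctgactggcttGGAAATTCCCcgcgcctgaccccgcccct
Il6: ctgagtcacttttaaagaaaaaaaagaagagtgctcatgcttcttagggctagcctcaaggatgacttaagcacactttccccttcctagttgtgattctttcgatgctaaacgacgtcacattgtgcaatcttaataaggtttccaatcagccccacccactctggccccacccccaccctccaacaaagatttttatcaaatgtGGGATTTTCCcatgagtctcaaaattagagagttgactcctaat
Tnf: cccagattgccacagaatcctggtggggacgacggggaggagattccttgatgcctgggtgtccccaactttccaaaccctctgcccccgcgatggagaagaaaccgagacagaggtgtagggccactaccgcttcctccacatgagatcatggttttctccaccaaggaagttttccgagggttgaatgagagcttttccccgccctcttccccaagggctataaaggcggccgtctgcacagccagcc
The Nfkbia match begins 29 bases before the start and lies on the minus strand of the window as printed, and the Il6 match begins 44 bases before the start on the plus strand. The Tnf window holds no match, which says only that these letters are not in these 250 bases. Of the windows not shown, the first of Tnfaip3 holds matches 125 and 12 bases before the start, and that of Rel holds overlapping matches 92 and 91 bases before it. So 4 of the 7 genes had a match, while 3.90% of 32851 windows of the same length held one. The half-site AGAACA of the glucocorticoid receptor, searched on both strands, was in 16.1% of all windows. Among the 7 genes it was found once, 11 bases before the second start of Tnfaip3. These matches describe letters and do not show binding.

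In callus the level of Tnf was highest in neutrophils and macrophages, and both classes had more of it in GC. Over both callus libraries, neutrophils made up 22.6% of the cells and held 48.0% of the Tnf UMIs (709 of 1477). Macrophages held 23.4% and the numerous, deeply sequenced chondrocytes 19.0%. In control callus alone, chondrocytes held 226 of the 537 Tnf UMIs, neutrophils 149 and macrophages 96. In callus neutrophils Tnf was at 61.8 CPM in control (149 UMIs in 1694 cells) and 309.7 CPM in GC (560 UMIs in 1378 cells). The GC level was 5.01-fold the control level (interval 4.18 to 6.05, log2 with 5 CPM added 2.24). The excess was spread over many cells. Tnf was seen in 113 control and 332 GC neutrophils, and the 10 richest cells held 21.5% and 12% of its UMIs. After each cell was thinned to 1000 UMIs, which left out 287 control and 372 GC neutrophils, 5.05% (3.96 to 6.32) of control and 21.7% (19.2 to 24.3) of GC neutrophils had a Tnf UMI. Unthinned, the shares were 6.67% and 24.1%, at median depths of 1301 and 1174 UMIs. In chondrocytes, which had median depths of 26397 and 6136 UMIs, the thinned shares were 0.348% and 0.565%, well under both neutrophil values.

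The difference was present on both sides of the neutrophil split. In the other callus neutrophils Tnf was at 68.8 CPM in control and 374 CPM in GC, a ratio of 5.44 (4.51 to 6.60). In granule-gene neutrophils it was at 22.0 and 90.3 CPM on only 8 and 37 UMIs (ratio 4.10, 1.88 to 10.2). Since most control and GC neutrophils were in different clusters, the comparison was also made inside clusters. Within cluster 0, with 548 control and 1157 GC cells, Tnf was at 107 and 372 CPM (3.48, 2.72 to 4.49). Within cluster 2, with 1011 control and 49 GC cells, it was at 48.9 and 419 CPM (8.55, 5.21 to 13.6).

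Callus macrophages had Tnf at 30.2 CPM in control (96 UMIs) and 96.3 CPM in GC (250 UMIs), a ratio of 3.19 (2.51 to 4.08) and a log2 ratio of 1.53. The thinned share of macrophages with a Tnf UMI was 2.38% (1.36 to 3.83) in control and 7.19% (5.31 to 9.47) in GC, against 8.27% and 17.8% unthinned. Monocyte and macrophage clusters both had the higher level in GC. Monocyte clusters were at 17.6 and 82.2 CPM (4.68, 3.28 to 6.81), and macrophage clusters at 62.0 and 128 CPM (2.07, 1.48 to 2.92). Among the latter, the cluster led by the complement genes C1qa, C1qb and C1qc was at 78.6 and 166 CPM (2.12-fold), and the cluster with Cd36, Ace and Cx3cr1 had 6 and 15 UMIs. This second cluster held 202 of the 379 cells of the macrophage clusters. The only class marker among its leading genes was Lyz2, from the monocyte list, so the name macrophage is uncertain for it. Tnf was seen in 57 control and 117 GC macrophages, and the 10 richest cells held 45.8% and 36.0% of its UMIs.

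In trabecular bone Tnf was also higher in GC, by a smaller factor. Neutrophils were 65.5% of the cells over both libraries and held 72.9% of the Tnf UMIs (2024 of 2778), macrophages held 9.86% and granulocyte-monocyte progenitors 7.92%. Neutrophil Tnf was at 41.4 CPM in control (693 UMIs) and 74.7 CPM in GC (1331 UMIs), a ratio of 1.80 (1.64 to 1.98). Thinned shares of neutrophils with a Tnf UMI were 4.08% (3.32 to 4.96) and 8.26% (7.31 to 9.30), beside 0.318% and 0% of erythroid cells. The thinned difference stood where the unthinned shares, 20.3% and 21.8%, were close, at median depths of 6014.5 and 4835.5 UMIs. Monocytes, the macrophage class of this tissue, had Tnf at 19.8 CPM in control (86 UMIs) and 42.8 CPM in GC (188 UMIs), a ratio of 2.16 (1.67 to 2.82). Few cells carried it: 58 control and 70 GC monocytes had a Tnf UMI, and the 10 richest held 40.7% and 51.1%. The thinned shares were 4.0% (2.01 to 7.04) and 6.34% (3.74 to 9.96), whose intervals overlap. Granulocyte-monocyte progenitors were at 20.3 and 22.1 CPM (1.09, 0.825 to 1.44), so no difference was detectable there at this depth.

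The trabecular neutrophil difference lay outside the granule-gene cells, and cluster 4, made up almost only of GC cells, held much of it. In the other neutrophils Tnf was at 42.4 and 117 CPM (2.76, 2.45 to 3.11). In granule-gene neutrophils it was at 40.2 and 33.2 CPM, a ratio of 0.826 (0.703 to 0.971). Most of these cells too were in different clusters. Cluster 7 held 413 control and 39 GC cells, cluster 1 held 26 and 671, and levels inside granule-gene clusters are not given here. RNA in barcodes of fewer than 100 UMIs, taken as ambient, had Tnf at 28.8 CPM in control and 39.8 CPM in GC. Ambient RNA was estimated, from hemoglobin genes, at 2.23% of the UMIs of control and 3.99% of GC non-erythroid cells. The ambient part of the Tnf of granule-gene neutrophils was not tested. The neutrophils of cluster 4, which were led by Cxcl3, Stfa2l1, Acod1 and Il1r2 and of which 638 came from GC and 1 from control, held 728 of the 1331 Tnf UMIs of GC neutrophils at 411 CPM. The other GC clusters were lower, at 59.8 CPM in cluster 2 and 28.4 CPM in cluster 3, and the control cells of cluster 5, led by Acod1 and Wfdc17, were at 76.9 CPM. The GC neutrophils outside cluster 4 were not compared with control as a whole. Outside the granule-gene set, clusters 0 and 6 held cells of both libraries, and they differed. In cluster 0 (760 and 65 cells) Tnf was at 35.2 and 85.8 CPM (2.44, 1.64 to 3.55). In cluster 6 (429 and 56 cells) it was at 31.5 and 25.5 CPM (0.810, 0.404 to 1.48). With 1 library per group, clusters of 1 library and the effect of GC cannot be told apart.

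**Figure D1:**
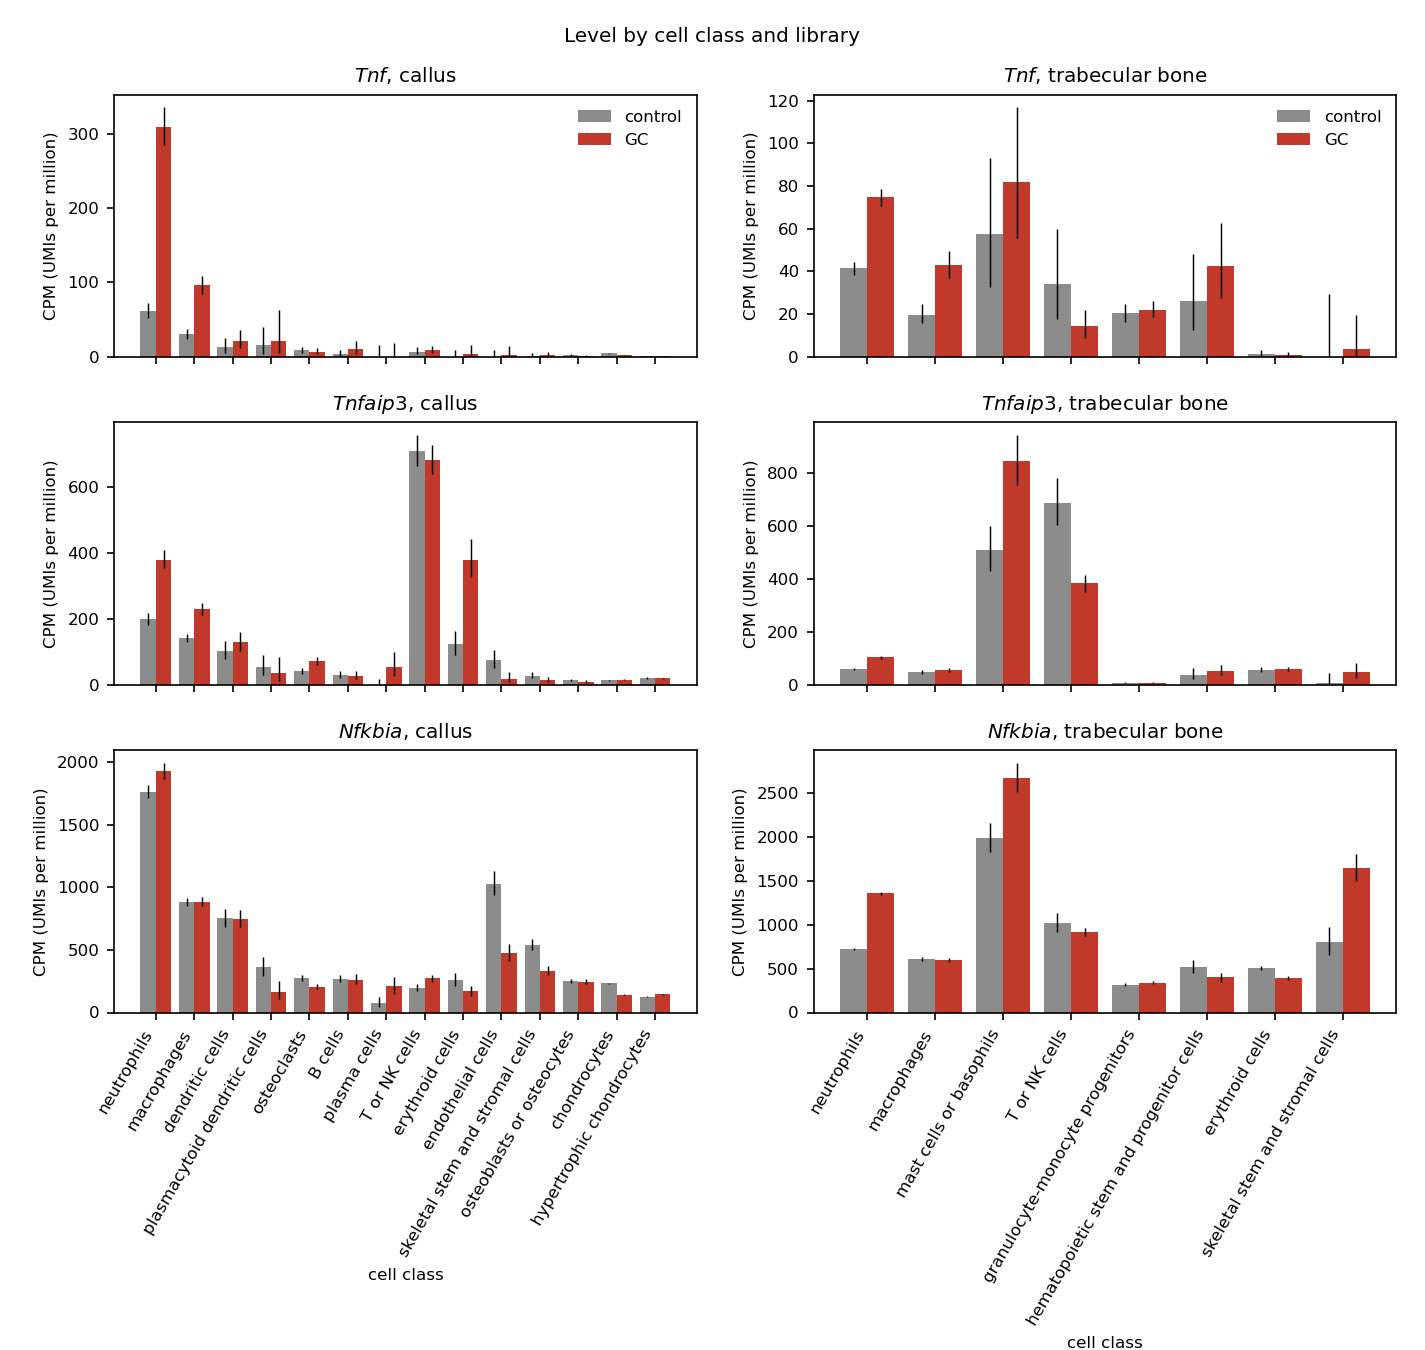
Levels of Tnf, Tnfaip3 and Nfkbia in CPM (bars, linear axis from 0) by cell class in control and GC libraries of callus and trabecular bone, with exact 95% Poisson intervals as error bars. Callus neutrophils went from 61.8 CPM of Tnf in control to 309.7 CPM in GC, and callus T or NK cells had Tnfaip3 at 709 and 681 CPM.

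In most other classes Tnf was lower than in neutrophils or was counted in too few UMIs to compare. Callus chondrocytes had 226 Tnf UMIs in control and 54 in GC (4.72 and 2.07 CPM). Nearly empty control callus barcodes were at 7.36 CPM. Ambient RNA was estimated, from hemoglobin genes, at 5.43% of the UMIs of non-erythroid cells in control callus and 12.4% in GC callus. Those cells included the unnamed cluster 29, with 3 control and 89 GC cells and hemoglobin genes among its leading genes. Its part in the estimate and the ambient part of chondrocyte Tnf were not tested. Chondrocyte cluster 5 held 193 of the control UMIs, at 10.9 CPM, and 9 of the GC UMIs, at 1.55 CPM. In control, 64 of the 226 UMIs were in 1 cell and 67.7% in 10 cells. Hypertrophic chondrocytes were at 0.640 and 0.605 CPM, and osteoclasts at 8.58 and 6.83 CPM. Trabecular mast cells or basophils had 16 and 31 Tnf UMIs, at 57.4 and 82.1 CPM (1.43, 0.759 to 2.80), a level over both libraries of 71.6 CPM (52.6 to 95.2) that overlaps that of neutrophils, 58.6 CPM (56.0 to 61.2).

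Il6 had another cellular origin from Tnf. In trabecular bone 470 of 544 Il6 UMIs (86.4%, 83.2 to 89.2) were in the mast cell or basophil class, which held 72 cells or 0.863% of the total. Neutrophils, 65.5% of the cells, held 4 Il6 UMIs, and T or NK cells, B cells, erythroid cells and hematopoietic stem and progenitor cells held 0. Skeletal stem and stromal cells, whose clusters here were led by matrix genes such as Dcn, Col1a1 and Igfbp5, came next with 7.54% of the UMIs, and 11 of the 17 UMIs of control stromal cells were in 1 cell. In mast cells or basophils Il6 was at 613 CPM in control (171 UMIs in 30 cells) and 792 CPM in GC (299 UMIs in 42 cells), a ratio of 1.29 (1.07 to 1.57) that did not reach 1.5-fold. After thinning, 51.7% and 68.3% of these cells had an Il6 UMI, and unthinned 76.7% and 92.9%. Over all cells of trabecular bone Il6 was at 5.80 and 9.32 CPM (196 and 348 UMIs, 1.61, 1.34 to 1.92). That sum by itself does not tell more of the cells from more RNA per cell. Mast cells or basophils were 0.801% of control and 0.915% of GC cells. With 5 CPM added the ratio over all cells was 0.41 on the log2 scale and not past the fold.

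Callus had little Il6. Most of its 216 UMIs were in mast cells or basophils (68, of which 65 in 16 control cells and 3 in 3 GC cells), chondrocytes (35), macrophages (34), hypertrophic chondrocytes (25), endothelial cells (14) and stromal cells (14), and unnamed cells and dendritic cells held 11 and 10. In control, 30 of the 65 UMIs of the mast cell or basophil class were in 1 cell. Callus macrophages had 25 Il6 UMIs in control and 9 in GC, a ratio of 0.441 (0.181 to 0.977), and chondrocytes had 13 and 22. Over all callus cells Il6 was at 1.70 and 1.44 CPM (136 and 80 UMIs, 0.843, 0.632 to 1.12), so no difference was detectable. Trabecular monocytes had 6 and 19 Il6 UMIs, of which 3 and 16 were in cluster 10. That cluster also had the higher Tnf level in GC, at 22.3 and 67.9 CPM (3.04, 2.09 to 4.49).

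**Figure D2:**
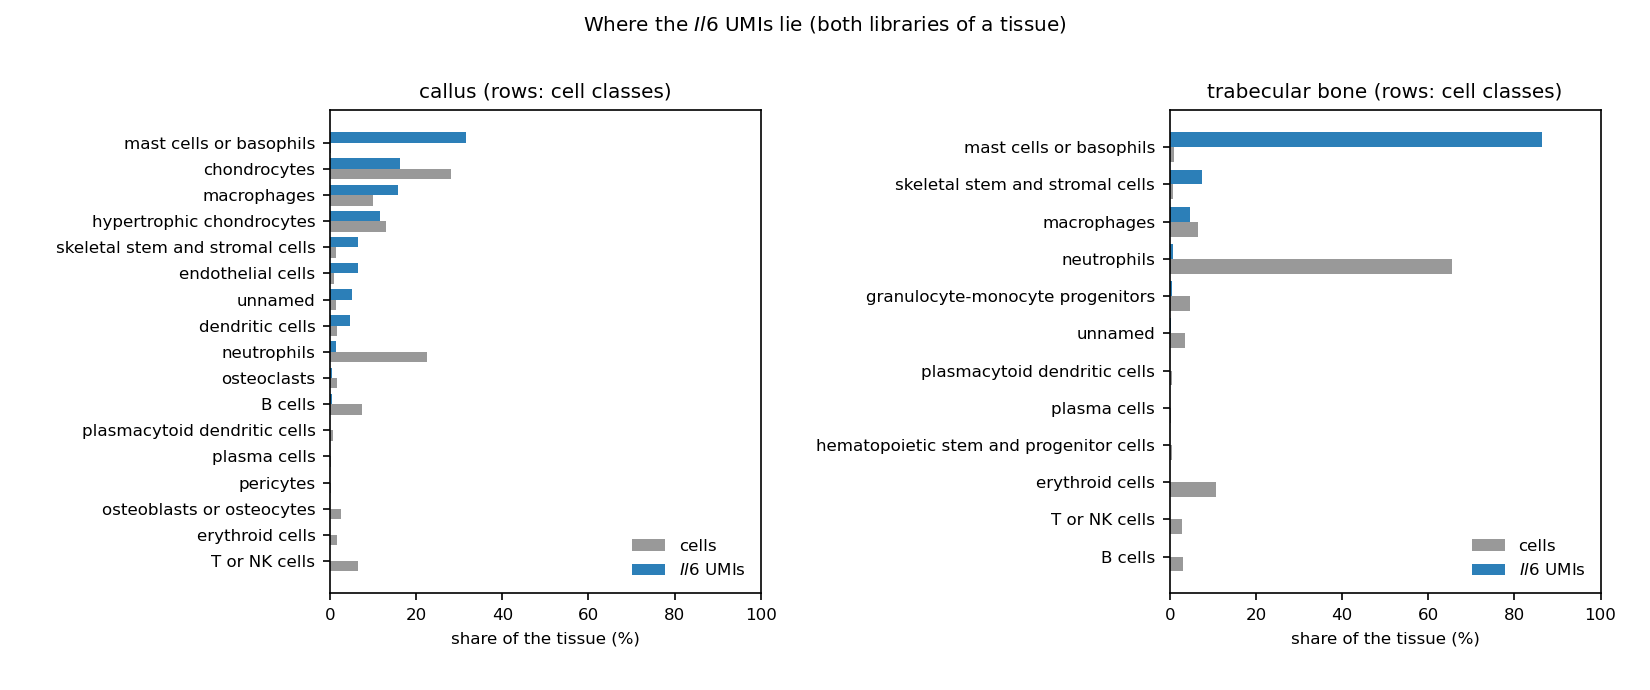
Share of all Il6 UMIs and share of all cells, in percent, held by each cell class over both libraries of a tissue. In trabecular bone 86.4% of the Il6 UMIs came from mast cells or basophils, which were 0.863% of the cells.

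The receptor genes differed in where they were expressed and in how they compared. Tnfrsf1a, the receptor found on most tissues, had its highest callus levels in endothelial cells (178 CPM, 149.9 to 209) and pericytes (175 CPM, 114 to 259), whose intervals overlap, and 52.9% of its UMIs were in the numerous chondrocytes. In trabecular bone it was highest in neutrophils (166 CPM) and monocytes (139.7 CPM). Of the classes compared, none with enough UMIs was past the fold, although the granule-gene subset of callus neutrophils was. Trabecular neutrophils were at 166 CPM in both libraries (0.999, 0.948 to 1.05) and trabecular monocytes at 139 and 140.1 CPM (1.01, 0.897 to 1.13). Callus macrophages were lower in GC, at 90.0 and 67.4 CPM (0.750, 0.618 to 0.908), and the granule-gene neutrophils of callus higher, at 129 and 207 CPM (1.60, 1.11 to 2.34).

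Tnfrsf1b, the receptor of leukocytes, was highest in callus neutrophils (721 CPM, 696 to 747) and macrophages (617 CPM, 597 to 638), then T or NK cells (424 CPM), and in trabecular bone in T or NK cells (167 CPM, 149 to 187). In GC callus it was higher in both myeloid classes. Neutrophils went from 596 to 889 CPM (1.49, 1.39 to 1.60) and macrophages from 522 to 733 CPM (1.41, 1.32 to 1.5), both short of 1.5-fold, whereas the other neutrophils, at 659.6 and 1051 CPM (1.59, 1.48 to 1.72), were past it. Callus dendritic cells were at 281 and 444 CPM (1.58, 1.30 to 1.92). Lower levels in GC were found in callus osteoblasts or osteocytes, at 38.3 and 20.6 CPM (0.539, 0.384 to 0.747), in callus T or NK cells, at 474 and 379 CPM (0.799, 0.709 to 0.899), and in trabecular monocytes, at 113 and 81.8 CPM (0.721, 0.628 to 0.828). Trabecular neutrophils were at 50.1 and 60.3 CPM (1.2, 1.10 to 1.32).

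Tnfaip3, encoding A20, was higher in GC in the same callus myeloid classes as Tnf. Neutrophils had it at 199 CPM in control (480 UMIs) and 379 CPM in GC (686 UMIs), a ratio of 1.91 (1.69 to 2.15, log2 0.91), and macrophages at 140.3 CPM (446 UMIs) and 229 CPM (593 UMIs), a ratio of 1.63 (1.44 to 1.85, log2 0.68). Thinned shares of cells with a Tnfaip3 UMI were 15% and 28.1% in neutrophils and 11.3% and 17.2% in macrophages, beside 1.74% and 2.82% of chondrocytes. In neutrophils and in macrophages the control and GC intervals did not overlap. Each is over the cells of 1 library and does not cover animals. The monocyte clusters of callus were at 127 and 230.0 CPM (1.81, 1.55 to 2.11), and the macrophage clusters, at 173 and 225 CPM (1.30, 1.04 to 1.62), did not reach the fold. Within neutrophil clusters the ratio was 1.64 in cluster 0 (285 and 468 CPM) and 1.84 (1.13 to 2.84) in cluster 2 (193 and 354 CPM).

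The other callus classes differed among themselves. T or NK cells had the most Tnfaip3 of the larger classes, at 709 and 681 CPM (0.960, 0.875 to 1.05). Osteoclasts, the bone-resorbing cells, were at 40.2 and 70.2 CPM (1.75, 1.33 to 2.30), and chondrocytes at 13.5 and 14.5 CPM (1.07, 0.941 to 1.22). In the chondrocyte clusters that held cells of both libraries, however, Tnfaip3 was at 12.4 and 6.88 CPM (0.553, 0.459 to 0.664). Erythroid cells were at 123 and 379 CPM, but this class contained cluster 32, with 13 control and 89 GC cells, which was led by the NK cell genes Ccl5, Il2rb and Gzma. The erythroid values of Nfkb1 (83.5 and 230.1 CPM) and Tnfrsf1b (98.2 and 274 CPM) carry the same limit.

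In trabecular bone Tnfaip3 was higher in GC in neutrophils and in mast cells or basophils, and lower in T or NK cells. Neutrophils were at 58.4 CPM (978 UMIs) and 103 CPM (1829 UMIs), a ratio of 1.76 (1.62 to 1.90), with thinned shares of 7.37% (6.35 to 8.49) and 11.6% (10.5 to 12.8). Mast cells or basophils were at 509 and 847 CPM (1.66, 1.36 to 2.04). T or NK cells, of which control had 56 and GC 188, were at 688 and 383 CPM (0.556, 0.477 to 0.650), and monocytes at 47.9 and 54.7 CPM (1.14, 0.944 to 1.38). Monocyte clusters went opposite ways: cluster 10 was at 68.6 and 120.5 CPM (1.76, 1.39 to 2.23) and cluster 34 at 26.2 and 51.2 CPM (1.95, 1.05 to 3.86), whereas cluster 12 was at 42.2 and 10.5 CPM (0.248, 0.119 to 0.485) and cluster 35 at 29.7 and 11.6 CPM (0.390, 0.173 to 0.803).

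As with Tnf, the trabecular neutrophil value differed between the granule-gene and the other cells. The other neutrophils had Tnfaip3 at 89.8 and 195 CPM (2.17, 2.00 to 2.37) and the granule-gene neutrophils at 22.2 and 11.9 CPM (0.536, 0.417 to 0.687). As for Tnf, most granule-gene cells of control and of GC were in different clusters. Cluster 4 held 1303 of the 1829 Tnfaip3 UMIs of GC neutrophils at 736 CPM, and the level of the class without it was not compared. In cluster 0, shared by both libraries, the levels were 62.4 and 46.6 CPM (0.747, 0.442 to 1.19), so the higher level of the class was not seen within it, although Tnf was higher there.

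Nfkbia had its highest callus level in neutrophils, 1838 CPM (1797 to 1879) over both libraries, against 883 CPM (859 to 908) in macrophages and 201 CPM in chondrocytes, and its highest trabecular level in mast cells or basophils, 2386 CPM (2269.7 to 2508). In callus myeloid cells it differed little between the libraries. Neutrophils were at 1767 and 1933 CPM (1.09, 1.05 to 1.14) and macrophages at 880.2 and 886 CPM (1.01, 0.953 to 1.06). Within neutrophil cluster 0 it was at 1569.8 and 2319.7 CPM (1.48-fold higher in GC), and within cluster 2 at 2170 and 2157 CPM. Trabecular neutrophils had 12104 Nfkbia UMIs in control and 24300 in GC, 723 and 1363 CPM, a ratio of 1.89 (1.84 to 1.93), and the thinned shares were 42.1% (40.1 to 44.1) and 50.3% (48.5 to 52.1). There again the difference was outside the granule-gene cells: the other neutrophils were at 990.3 and 2349 CPM (2.37, 2.31 to 2.43), and granule-gene neutrophils at 414 and 397 CPM (0.958, 0.913 to 1.01). Cluster 4 alone held 12747 of the 24300 UMIs, at 7204 CPM, while GC cells of clusters 2 and 3 were at 1737 and 725 CPM and control cells of cluster 5 at 2346 CPM. Here too, the level of the class without cluster 4 was not compared. Within cluster 0 the levels were 800.3 and 1265 CPM (1.58, 1.44 to 1.73), and within cluster 6 they were 421 and 654 CPM (1.55, 1.37 to 1.76). Trabecular monocytes were at 613 and 600.0 CPM (0.979, 0.927 to 1.03).

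**Figure D3:**
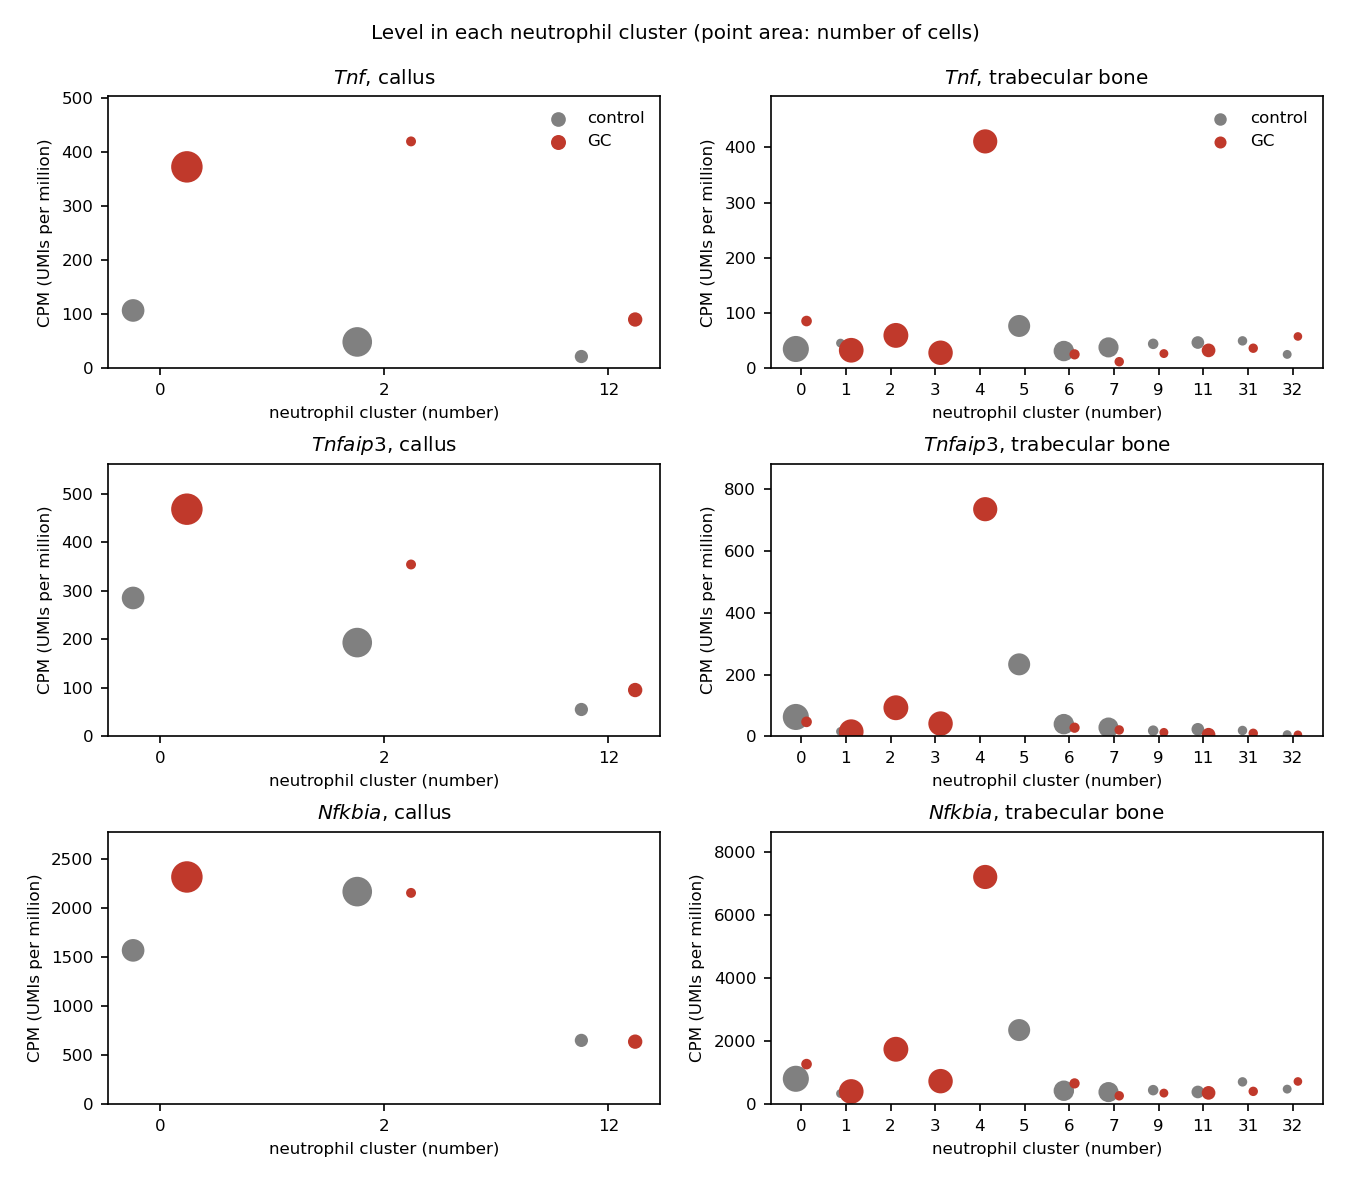
Level in CPM of Tnf, Tnfaip3 and Nfkbia in each neutrophil cluster, per library where a cluster had at least 15 cells of that library, with the area of a point set by the number of cells. Among trabecular clusters, cluster 4, with 638 GC cells, lies highest at 411 CPM of Tnf, 736 CPM of Tnfaip3 and 7204 CPM of Nfkbia.

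Nfkbia was lower in GC in several structural classes of callus. Endothelial cells were at 1029.8 CPM in control and 477 CPM in GC (0.463, 0.388 to 0.551), on 52 and 76 cells. Skeletal stem and stromal cells were at 542 and 333 CPM (0.616, 0.539 to 0.701), and their 10 richest cells held 46.7% and 41.0% of the Nfkbia UMIs. Chondrocytes were at 233 and 142 CPM, 1.65-fold lower (ratio 0.608, 0.585 to 0.631). Their thinned shares with an Nfkbia UMI were 17.4% (15.6 to 19.3) and 16.8% (15.2 to 18.5), so no difference was seen in this share. Thinning makes every cell count alike, whereas in the CPM of a class deeper cells count for more. The median depth of chondrocytes was 26397 UMIs in control and 6136 in GC. The parts of depth and of the mix of clusters in the lower level were not tested. The libraries also differed in their chondrocyte clusters. Clusters 9, 10 and 30 held 664, 195 and 76 GC cells and 5 control cells between them, and the leading genes of clusters 10 and 30 included the granulocyte genes Ngp, Camp, Elane or Prtn3. Cluster 25 held 85 control and 2 GC cells. Without these 4 clusters Nfkbia was at 219.6 and 118 CPM (0.535, 0.512 to 0.559). Within the shared clusters the ratio was 0.369 (0.343 to 0.397) in cluster 5 and 0.591 (0.487 to 0.712) in cluster 14, but 0.920 (0.833 to 1.02) in cluster 6 and 0.863 (0.785 to 0.949) in cluster 7. Osteoblasts or osteocytes, at 248 and 245 CPM (0.987, 0.888 to 1.10), and hypertrophic chondrocytes, at 126 and 144 CPM (1.14, 1.07 to 1.21), did not share the lower level. In trabecular bone the stromal cells, 17 control and 45 GC cells, went the other way at 799 and 1648 CPM (2.06, 1.66 to 2.59). Of the 100 Nfkbia UMIs of the control stromal cells 98% were in 10 cells.

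Nfkbiz was highest in mast cells or basophils of trabecular bone, at 895 CPM (825 to 971), followed by stromal cells (384 CPM, 327 to 449.5) and neutrophils (375 CPM, 369 to 382), whose intervals overlap. In callus the same class and neutrophils led, at 501 CPM (330.3 to 729) and 362 CPM (344 to 380.4), again with overlapping intervals. It was higher in GC in callus neutrophils, at 314 and 426 CPM (1.36, 1.23 to 1.5), callus macrophages, at 139 and 168 CPM (1.21, 1.06 to 1.39), and trabecular monocytes, at 50.7 and 71.3 CPM (1.41, 1.18 to 1.68), all under 1.5-fold. Within monocyte cluster 10 of trabecular bone it was at 71.8 and 139.9 CPM (1.95-fold). Callus stromal cells were lower, at 164 and 86.7 CPM (0.530, 0.409 to 0.682), with 53.6% and 66.7% of the UMIs in 10 cells. Callus B cells were higher, at 66.0 and 110.4 CPM (1.67, 1.21 to 2.30). Trabecular neutrophils were at 371 and 379 CPM (1.02, 0.987 to 1.06).

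The subunit genes were highest in different classes. Rel, encoding c-Rel, a subunit of lymphocyte activation, was highest in callus B cells (752 CPM, 715 to 791) and dendritic cells (709 CPM, 663 to 757), whose intervals overlap. Relb, the subunit of the alternative pathway, was at 85.9 CPM (70.3 to 104) in callus dendritic cells and 63.1 CPM (52.7 to 75.0) in B cells, with overlapping intervals. Nfkb1 was highest in the callus mast cell or basophil class, at 2673 CPM (2254 to 3147), with 123 of its UMIs in the 16 control cells. Callus dendritic cells followed at 542 CPM (502 to 585) and T or NK cells at 346 CPM (324 to 369).

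Between GC and control the subunit genes were not past the fold in neutrophils or macrophages of either tissue. The exception within a class was Nfkb1 in the granule-gene neutrophils of callus, at 165 and 87.9 CPM (0.532, 0.342 to 0.817). In callus neutrophils Nfkb1 was at 232 and 251 CPM (1.08, 0.955 to 1.23), Rel at 246 and 347 CPM (1.41, 1.26 to 1.58) and Relb at 39.0 and 27.1 CPM (0.696, 0.482 to 0.993). In callus macrophages Nfkb1 was at 332 and 304 CPM, Rel at 272 and 263 CPM and Relb at 54.7 and 49.7 CPM, each with an interval of the ratio that included 1. Trabecular neutrophils had Nfkb1 at 117 and 91.8 CPM (0.786, 0.736 to 0.840) and Rel at 85.7 and 72.0 CPM (0.840, 0.779 to 0.907), both lower in GC, and Relb at 12.2 and 12.9 CPM (1.06, 0.873 to 1.28). Trabecular monocytes had lower values of all 3 in GC, Nfkb1 at 190.1 and 171 CPM (0.900, 0.814 to 0.995), Rel at 175 and 125 CPM (0.716, 0.640 to 0.800) and Relb at 21 and 15 CPM (0.717, 0.514 to 0.995). Trabecular T or NK cells had Nfkb1 at 514 and 246 CPM (0.479, 0.399 to 0.576), and hematopoietic stem and progenitor cells at 341 and 218 CPM (0.639, 0.497 to 0.822).

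Relb was lower in GC in chondrocytes, osteoblasts or osteocytes, and osteoclasts of callus. Chondrocytes were at 25.7 and 12.6 CPM (0.492, 0.435 to 0.557), and without the 4 clusters of mainly 1 library at 24.7 and 12.8 CPM (0.517, 0.452 to 0.590). Osteoblasts or osteocytes were at 23.4 and 13 CPM (0.555, 0.360 to 0.842) and osteoclasts at 26.2 and 15.6 CPM (0.596, 0.374 to 0.933). Hypertrophic chondrocytes were at 23.5 and 23.4 CPM (0.994, 0.852 to 1.16). Of the 10 callus classes with enough Relb UMIs 9 had a lower value in GC and 1 a higher one. The higher one was skeletal stem and stromal cells, with 34 UMIs in each library and a log2 ratio of 0.26.

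The counts of members past the fold are given beside the shares over all genes of the class. In callus neutrophils 2 of 9 genes with enough UMIs were past 1.5-fold higher (Tnf and Tnfaip3) and 0 lower, where 12.3% and 11.9% of all 5261 genes tested were, and the median log2 ratio was 0.43 over the 9 and 0.00 over all genes. In callus macrophages the same pair was higher and 0 lower, with 8.45% and 7.51% of all 7138 genes past the fold. The other callus neutrophils had 3 higher of 9, Tnfrsf1b being the additional one, against 13.7% higher and 13.4% lower of all genes. Callus chondrocytes had 2 of 9 lower, Nfkbia and Relb, against 2.30% lower and 2.90% higher. Trabecular neutrophils had 3 of 9 higher, Nfkbia, Tnfaip3 and Tnf, against 3.76% higher and 1.63% lower of 8853 genes. The same genes were higher in the other trabecular neutrophils, where 15.1% of all genes were higher and 2.55% lower and the median of all genes was itself 0.26 on the log2 scale. Trabecular macrophages had 1 of 9 higher, Tnf, against 1.23% higher and 2.27% lower of 8510 genes. Many genes were past the fold in callus neutrophils and macrophages and in the other neutrophils of both tissues, and few in the remaining comparisons. With so few members, these counts carry little by themselves, and the values of the single genes are what the data give.

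Over all cells of a tissue, a value that does not rest on clustering, Tnf was past the fold in both. Callus Tnf was at 6.72 CPM in control and 16.9 CPM in GC (2.51, 2.25 to 2.80), and it was the only one of the 10 past the fold, against 1.63% of all 15119 genes higher and 1.57% lower. Trabecular Tnf was at 28.4 and 48.7 CPM (1.72, 1.59 to 1.86) and Tnfaip3 at 57.7 and 91.0 CPM (1.58, 1.49 to 1.67), 2 of 10, against 1.51% higher and 1.88% lower of 12149 genes. Callus Tnfaip3, at 39.7 and 60.6 CPM (1.53, 1.45 to 1.60), and trabecular Nfkbia, at 625 and 939 CPM (1.5, 1.48 to 1.53), fell just under the fold once 5 CPM were added. Nfkbia was lower over all callus cells, at 302 and 261 CPM (0.865, 0.848 to 0.883). In such sums a different number of cells of a type and a different amount of RNA per cell cannot be told apart.

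**Figure D4:**
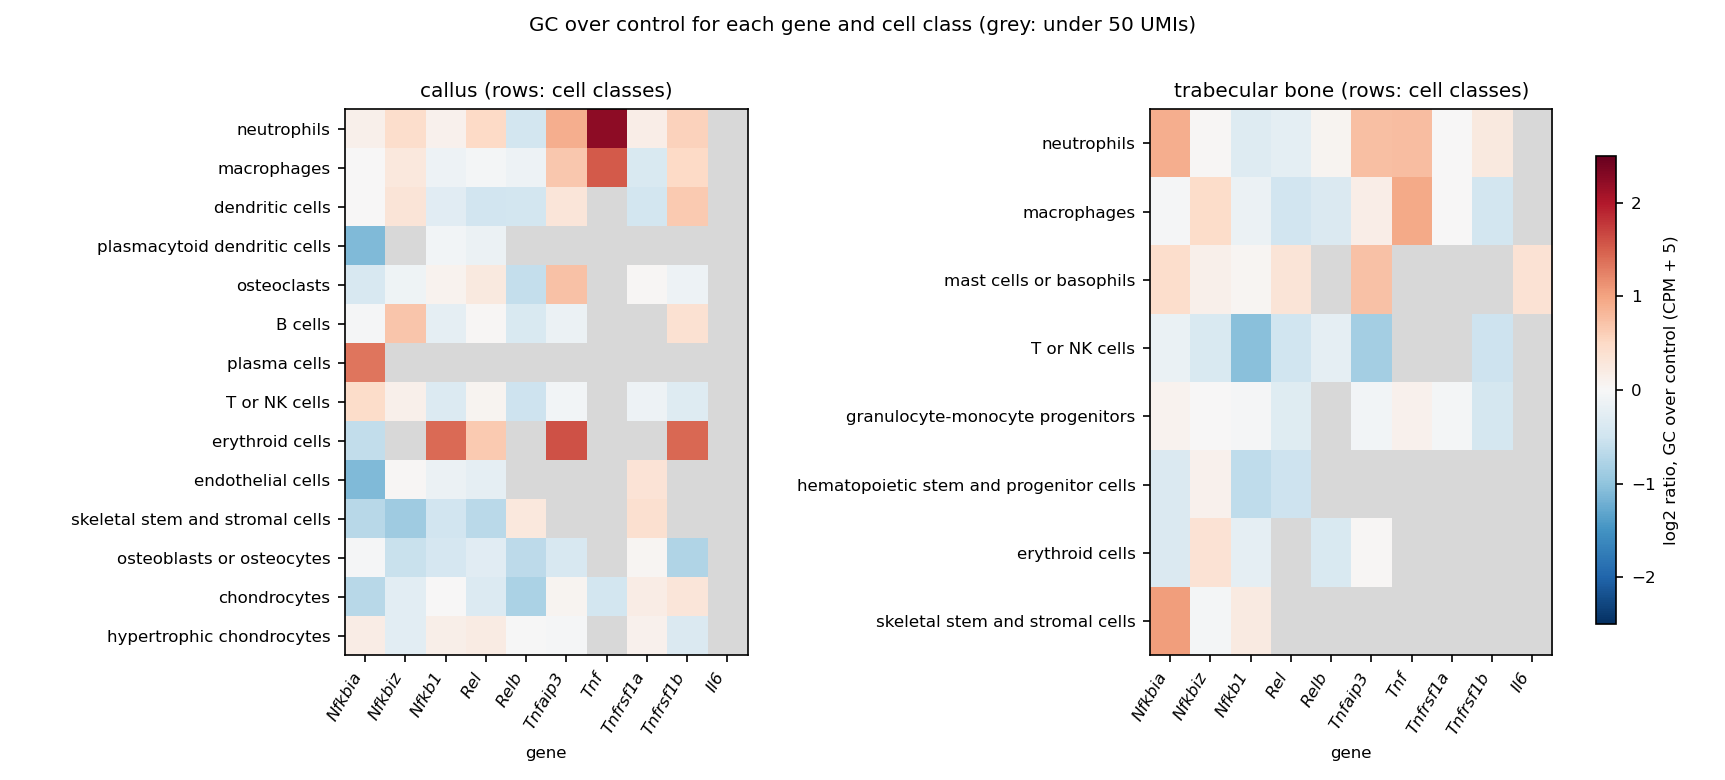
Log2 ratio of GC over control (5 CPM added) for the 10 genes in 14 callus and 8 trabecular classes with at least 15 cells in each library, on a color scale from lower (blue) to higher (red), with gray where both libraries held fewer than 50 UMIs. Tnf in callus neutrophils is at 2.24 and in callus macrophages at 1.53.

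The wider pathway held genes past the fold in both directions. It was described by a list of 66 genes, comprising other subunits and inhibitors, kinases, negative regulators, TNF receptor complex, TNF family, IL-6 family and NF-kB target genes. In callus neutrophils 8 of the 51 with enough UMIs were past the fold higher and 12 lower (median log2 0.03), and in callus macrophages 9 of 59 were higher and 9 lower (median 0.05), where the shares over all genes were 12.3% higher and 11.9% lower in neutrophils and 8.45% and 7.51% in macrophages. The cytokine genes Il1b and Osm were among the lowest in both. In callus neutrophils Il1b was at 5062 and 825 CPM, Osm at 898 and 178 CPM and the early response gene Ier3 at 1436 and 286 CPM, whereas Plau, encoding urokinase (19.5 and 79.1 CPM), Gadd45b (515 and 1207 CPM) and the adhesion molecule gene Icam1 (30.7 and 69.1 CPM) were the highest. In callus macrophages Osm was at 455 and 111 CPM, Il1b at 920.4 and 376 CPM and the neutrophil chemokine gene Cxcl2 at 2630.2 and 1310.3 CPM, against Ikbkg, the kinase scaffold NEMO (15.1 and 39.3 CPM), Tnfaip2 (121 and 262 CPM) and Il6st, the shared IL-6 family receptor chain (28.0 and 59.0 CPM). Tnf and Il1b, both cytokine genes of the pathway, thus had opposite directions in the sums of these classes. Il1b was not compared within clusters or cell by cell. None of the 6 other subunit and inhibitor genes was past the fold in either class.

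In trabecular neutrophils 8 of 58 pathway genes were past the fold higher and 1 lower (median log2 0.19), where 3.76% and 1.63% of all genes were. Icam1 was at 5.56 and 48.2 CPM, 8.67-fold higher, the chemoattractant receptor-like gene Ccrl2 at 114 and 232 CPM and Gadd45b at 96.6 and 168 CPM. The lowest were Ptgs2, encoding cyclooxygenase-2 (103 and 61.8 CPM), Osm (236 and 177 CPM) and the deubiquitinase gene Cyld (64.6 and 47.9 CPM). In trabecular monocytes 2 of 57 were higher and 3 lower, where 1.23% and 2.27% of all genes were, with Cxcl2 at 193 and 406 CPM and Lifr at 10.4 and 23.7 CPM at the high end, and Ccrl2 at 70.7 and 34.6 CPM, Osm at 155 and 91.8 CPM and Nfkbie at 45.4 and 27.6 CPM at the low end. The level of Osm was lower in GC in all 4 of these classes, though short of the fold in trabecular neutrophils.

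Genes that report on the hormone and on tissue handling were read beside these values. Of 12 genes known to be induced by glucocorticoids, 6 of 11 with enough UMIs were past the fold higher and 0 lower in trabecular neutrophils (all genes 3.76% and 1.63%), among them Mt1 (9.08 and 142 CPM), Klf9 (15.2 and 89.3 CPM), Fkbp5 (12.7 and 75.2 CPM) and Tsc22d3 (67.7 and 207 CPM), and 3 of 10 were higher in trabecular monocytes (all genes 1.23%). In callus neutrophils and in callus macrophages 2 of 10 were higher and 3 lower, where 12.3% and 11.9% of all genes were in neutrophils and 8.45% and 7.51% in macrophages, with Fkbp5 higher in both and Dusp1 at 2626 and 1052 CPM in neutrophils. Of 12 genes known to rise when tissue is digested, 9 of 12 were past the fold lower in GC in callus macrophages (all genes 7.51%), with a summed level of 3491 CPM in control and 2127 CPM in GC. In callus neutrophils 4 of 10 were lower and 1 higher, against 11.9% and 12.3% of all genes. Their sum was 5928 and 3216 CPM, with Fos at 439 and 95.1 CPM, Egr1 at 1424 and 315 CPM, Junb at 2005 and 638 CPM and, the one higher, Atf3 at 173 and 434 CPM. Trabecular neutrophils had 1 higher and 2 lower of 12 (all genes 3.76% and 1.63%), and trabecular monocytes 1 lower of 12 (2.27%). The summed stress genes were also lower in GC in structural classes of callus. Stromal cells were at 12490.0 and 9495 CPM, endothelial cells at 8197 and 6715 CPM and chondrocytes at 5715 and 4601 CPM. Hypertrophic chondrocytes were at 9275 and 7625 CPM and osteoblasts or osteocytes at 8624 and 8040.1 CPM. In callus neutrophils and macrophages the summed stress genes, Il1b and Osm were lower in GC, and Tnf and Tnfaip3 were higher. In trabecular neutrophils and monocytes Tnf was higher too, where most stress genes were not past the fold. The part of the stress genes in the results was not tested.

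Across 22 classes of both tissues, each taken over both libraries, the genes whose level followed a member most closely were found among 13267 genes by the correlation of log levels, given without a test because classes of a tissue share libraries. Tnf was closest to Osm (r = 0.92), the inflammasome gene Nlrp3 (0.91) and Mthfs (0.90). Tnfaip3 was closest to Rgs1 (0.89), Nabp1 and Gm20186 (both 0.86), and Nfkbia to Gm17056 (0.83), Cxcl2 (0.82) and Plk3 (0.81). Nfkbiz was closest to Pnrc1 (0.84), Klf7 (0.83) and Junb (0.82). The subunit genes Nfkb1 and Rel were close to each other (0.89), with Crtc3 (0.94) and Nsrp1 (0.90) also close to Nfkb1 and Ube2d2a and Birc3 (both 0.86) to Rel, and Relb was closest to Clk1 (0.86), Chd2 and Rbm39 (both 0.84). Tnfrsf1b was closest to Wipf2 (0.93), Tes (0.90) and Tatdn2 (0.89), Tnfrsf1a to Phactr2 (0.84), Mtus1 and S100a6 (both 0.83), and Il6 to Spin4, Slco2b1 and 1500026H17Rik (0.83 each). The Il6 values rest on few classes. Trabecular mast cells or basophils were at 716 CPM, trabecular stromal cells at 100.4 CPM and the other classes compared at most at 17.0 CPM. The callus mast cell or basophil class was not among the 22. Osm, the closest gene to Tnf across classes, was lower in GC in the neutrophil and macrophage classes in which Tnf was higher.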

How the data were processed

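The 4 matrices of unnormalized UMI counts, 1 per library, were analyzed. The authors deposited counts per gene and barcode made with Cell Ranger (version 4 per the file headers, 5.0.1 per the submitters' processing notes, which also name Seurat 3.2.0 and mm10). The labels name chemistry v2, while the full matrices list 6794880 barcodes. The GC callus matrix lists 7762 barcodes of at least 500 UMIs and was taken as already called. In the other libraries, cells were barcodes above 10% of the 99th percentile of the 3000 largest, or barcodes of at least 500 UMIs that differed from ambient RNA in a multinomial test (10000 simulations, adjusted p of 0.01). Control and GC callus cells were thus called in different ways, and the part of this in the callus ratios was not tested. Cells with fewer than 200 genes or over 10% mitochondrial UMIs were removed, and doublets, scored against simulated pairs, at 0.8% per 1000 cells.

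Each tissue was clustered (2000 genes, 30 components, 15 neighbors, Leiden resolution 1) with 100 genes, those of the members and lists, left out. Clusters were named from markers of 21 classes (at least 2-fold in 10% of cells, at least 3 markers), by a rule revised after clusters were seen. Intervals are exact at 95% (Poisson for CPM, conditional for ratios, Clopper-Pearson for shares). The ratio step was tested on simulated data. The members and lists were chosen with earlier results of these data known. Text names all members, the 3 highest and 3 lowest pathway genes per class with at least 50 UMIs, and the 3 genes most like a member. Other genes were named after their values were seen. Positions are from GENCODE M21 on GRCm38. The analysis ran in Python 3.11.15, with leidenalg 0.10.2 and igraph 0.11.9 for clustering, scikit-learn 1.9.0 for components, scipy 1.17.1 for intervals, and numpy 2.4.6, numba 0.67.0, pandas 2.3.3 and matplotlib 3.10.9.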

Additional observations from a re-analysis of the deposited data

Results flagged for a closer look

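Several ratios of GC over control lay on opposite sides of 1 in callus and trabecular bone, with intervals for counting error that excluded 1 in both. With 1 library per group the difference between tissues was not tested. Over all cells, Nfkbia was at a ratio of 0.865 in callus and 1.5 in trabecular bone, and Nfkbiz at 0.924 and 1.05. In neutrophils Rel was at 1.41 in callus and 0.840 in trabecular bone, and in granule-gene neutrophils at 1.45 and 0.650. In the other neutrophils Nfkb1 was at 1.23 and 0.829. Tnfrsf1b in the macrophage class was at 1.41 in callus, where the class holds monocytes and macrophages, and at 0.721 in trabecular bone, where it holds monocytes alone. Nfkbia in skeletal stem and stromal cells was at 0.616 in callus (89 control and 90 GC cells) and 2.06 in trabecular bone (17 and 45 cells).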

How the results depend on the processing

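No paired analysis was possible because each group is 1 library, and for the same reason no replicate could be left out. Under other settings 666 values were recomputed. They are ratios of single members in macrophages, neutrophils and other neutrophils, and the share of Il6 UMIs in trabecular mast cells or basophils. Ratios of single members in the remaining classes are not among them. Of the 666, 552 stayed within the counting interval of the main value and 110 lay outside it. Changes of sign by members short of the fold are among the 552 and 110. The other 4 were ratios past the fold that changed sign. In granule-gene neutrophils of trabecular bone alone, the log2 ratios of Nfkbia, Tnfaip3 and Tnf were -0.06, -0.69 and -0.24, and within neutrophil cluster 0 that of Tnfaip3 was -0.39. The log2 ratio of Tnf ranged over the alternatives from 1.75 to 2.48 in callus neutrophils and from 0.99 to 1.95 in callus macrophages, past the fold in 13 of 13 each, from 0.66 to 1.07 in trabecular macrophages (10 of 10), and from -0.24 to 1.40 in trabecular neutrophils (13 of 14). Tnfaip3 was past the fold in 14 of 14 for callus neutrophils (0.70 to 1.03) and 12 of 13 for callus macrophages (0.37 to 0.83).

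The count of members past the fold moved in several classes. Over all cells, with 1 CPM added, it was 2 in callus and 4 in trabecular bone, with 20 CPM added 0 in both, and with ambient RNA taken off 2 in callus. The GC callus matrix lists no nearly empty barcodes, so the ambient profile of control callus was used for it as well. The ambient share, estimated from hemoglobin genes in non-erythroid cells, was 5.43% in control callus and 12.4% in GC callus. Unnamed cluster 29, with 3 control and 89 GC cells and hemoglobin genes among its leading genes, was among those cells. No estimate was made without it. The count was 1 in the macrophage clusters of callus alone (Tnf) and 1 in granule-gene neutrophils of trabecular bone alone (Tnfaip3, lower). In trabecular macrophages it was 2 with at most 5% mitochondrial UMIs, and 0 after thinning, where 6 members and not Tnf had enough UMIs. In other callus neutrophils it was 5 with ambient RNA taken off. In callus chondrocytes it was 1 with 20 CPM added and 4 after thinning, where Nfkb1, Tnfaip3 and Tnfrsf1b were higher, Relb lower and Nfkbia no longer past the fold. Without its 4 clusters of mainly 1 library it was 3, all lower, with Tnf the additional one. The split of neutrophils, the values within clusters and the alternatives for trabecular neutrophils, other neutrophils and chondrocytes were chosen after seeing the data. Doublets kept, other mitochondrial limits, Leiden resolutions of 0.6 and 1.5, other minimums of UMIs, means over cells and centering on the median gene were the remaining settings.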
